A study of Mus musculus with 6 samples.

Results

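The apoptosis regulators described here are 34 genes that start, carry out or restrain programmed cell death: Bcl2 family proteins, caspases, inhibitors of apoptosis, and death receptors with their adaptors. Members were chosen by name, as all probe sets that the platform annotation gives to 1 of these gene symbols, with the brightest probe set (highest mean over the 6 arrays) standing for each gene. Of the 34, 32 had a named probe set, of 12393 genes named on the array by 1 symbol, and 23 were bright enough to be tested. The 2 without a named probe set were not analysed here. Retinal total RNA was measured on 6 Affymetrix arrays. Of these, 3 came from C57BL/6 knockout mice, males that carry only the knockout allele (-/Y), and 3 from C57BL/6 wildtype mice whose sex the labels do not give, all at postnatal day 7. No treatment is given for either group, and the labels do not give the number of animals behind an array. A retina is a mixture of cell types, so fewer cells of a type and less RNA per cell cannot be told apart.

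In the mitochondrial pathway, pro-survival proteins such as Bcl2 hold the pore-forming effectors in check, and BH3-only proteins release that check. Cytochrome c then leaves the mitochondria and joins Apaf1 to activate caspase 9, while death receptors such as Fas and Tnfrsf1a activate caspase 8 through adaptor proteins. In the mouse retina, the first weeks after birth are a period of naturally occurring cell death, which removes surplus ganglion, amacrine, bipolar and glial cells while the layers mature.

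None of the 23 members tested differed between knockout and wildtype retinae past the threshold, a Benjamini-Hochberg adjusted p of 0.05 in limma. Over all 13575 probe sets tested, 2 passed, which is 0.0147%, and neither was a member. The lowest adjusted p of a member was 0.999, and 0 members had an unadjusted limma p under 0.05, where 518 of all tested probe sets (3.82%) did. The values are signals scaled to a common array level, and a fold change is a difference of log2(signal + 19.1), which understates the change of dim probe sets. A probe set was tested when its mean scaled signal was above 62.4, the 40th percentile. The median log2 fold change of the 23 members was 0.06, with a range of -0.22 to 0.47, beside a median of 0.00031 over all tested probe sets. Positive values were found for 15 of the 23 (65.2%), beside 50.1% of all tested probe sets, and 8 were negative. That split depended on the scaling: it was 19 positive to 4 negative with median scaling, where the median of all tested probe sets moved to 0.09, and 23 to 0 without rescaling, where it moved to 0.29. It depended on the probe set too: with the mean of all probe sets of a gene it was 11 positive to 12 negative. All 3 knockout arrays lay above all 3 wildtype arrays for 1 member, Casp9 (4.35%), and below them for 0, where the groups did not overlap for 9.1% of all tested probe sets, 4.05% higher and 5.05% lower. With median scaling 3 members did not overlap, beside 9.92% of all tested probe sets, and without rescaling 4, beside 8.64%, so nothing about the set is read from this count.

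On the brightest probe set of each gene, the main fit gave a 95% interval of the log2 fold change. It lay inside a 2-fold change in both directions for 23 of 23 tested members, and inside a 1.5-fold change for 12 of 23. The highest upper end, that of Tnfrsf1a, was 0.98, close to a 2-fold change. With median scaling the log2 fold change of Tnfrsf1a was 0.56 ± 0.225 (SE), and with the pseudocount at the 10th percentile 0.486 ± 0.237 (SE). Intervals were not computed for the alternative settings, so this bound holds for the main fit only. Other tested probe sets of 3 members reached past a 2-fold decrease, with lower ends of -1.353 for Casp9, -1.37 for Apaf1 and -1.47 for Xiap, so these genes are not bounded within 2-fold by the arrays as a whole. These intervals are for 1 gene at a time, and the small number of arrays sets their width: the standard errors of the members ranged from 0.13 to 0.27 on the log2 scale, with a median of 0.196, beside 0.197 over all tested probe sets. The median absolute log2 fold change was 0.125 over the members and 0.133 over all tested probe sets.

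**Figure D1:**
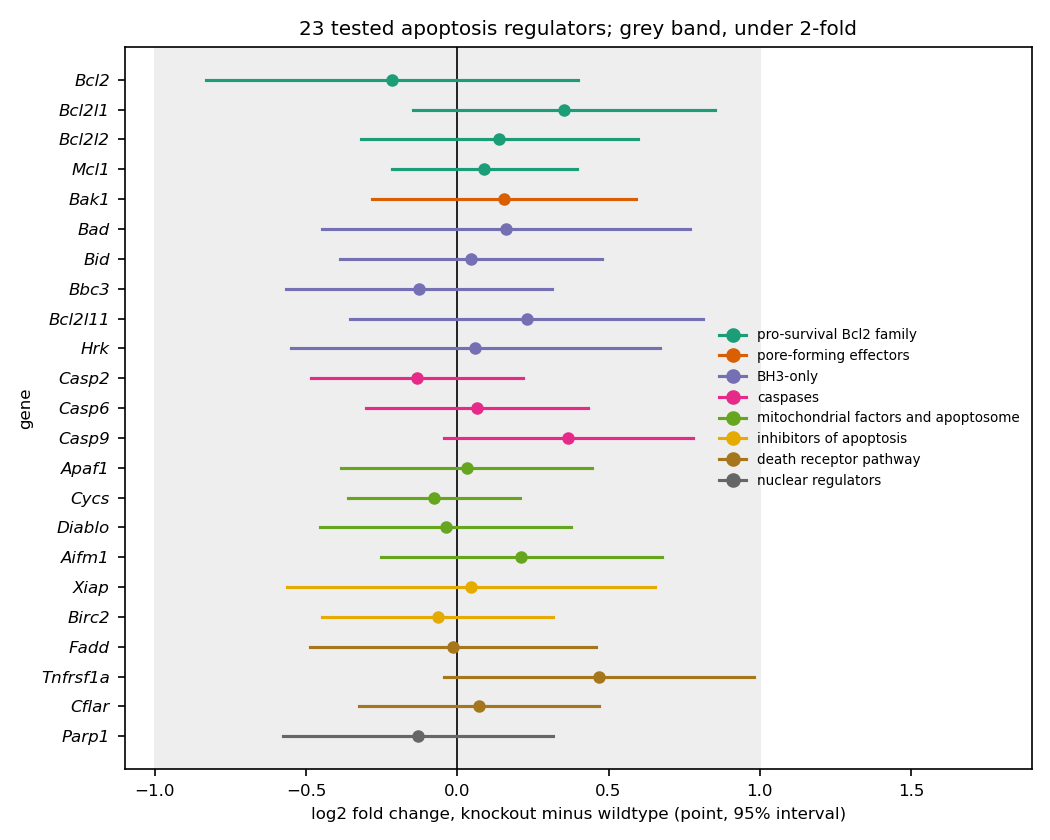
Log2 fold change (knockout minus wildtype, horizontal axis) of each of the 23 tested apoptosis regulators, one row a gene, coloured by role, with its 95% interval from limma. Every interval reaches across 0 and stays inside the grey band of a 2-fold change, and Tnfrsf1a (0.47) and Bcl2 (-0.22) are the ends of the range.

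Knockout array 1 stood apart from the other arrays before any comparison. Its correlation with them, over log2 values of all tested probe sets, was 0.914 to 0.936, against 0.958 to 0.979 among the other 5. The ratio of the 3' to the 5' probe set of the Actb control, a measure of how complete the labelled RNA was, was 2.17, 1.69 and 1.9 in the knockout arrays and 1.64, 1.44 and 1.59 in the wildtype arrays, so the groups did not overlap. The same ratio for the Gapdh control was 1.18, 0.884 and 1.16 in knockout and 0.982, 0.824 and 0.880 in wildtype arrays, where they did. The scaled signal of the 18S ribosomal RNA control was 609, 52.4 and 54.9 in knockout and 41.4, 2570 and 38.8 in wildtype arrays, which set wildtype array 2 and knockout array 1 apart from the other 4. The trimmed mean signal before scaling was 263 to 304 in knockout and 171 to 312 in wildtype arrays. The labelled tissue was checked by its markers: 8 of 10 listed rod genes had a named probe set, and all 8 were above the filter. Their summed scaled signal was 20210 to 25680 in knockout and 25100 to 26950 in wildtype arrays, so the sums overlapped. Sag (6190 to 7052 in knockout, 7344 to 7886 in wildtype) and Rom1 (2271 to 2764 and 3148 to 3382) did not overlap. Both were lower in knockout, and the other rod genes overlapped. Of 12 marker lists, the summed signals of 2 did not overlap between the groups: amacrine and ganglion genes (8 of 9 on the array; 7795 to 8449 in knockout, 7104 to 7545 in wildtype) and skeletal muscle genes (6 of 6; 301 to 370 in knockout, 434 to 490.5 in wildtype). The amacrine and ganglion difference was not shared by the whole list. Nefl, its brightest gene, had 2691 to 2823 in knockout and 2075 to 2532 in wildtype arrays, and every other gene of the list overlapped. Sncg went the other way, with 519.5, 363 and 375 in knockout and 518, 592 and 534.5 in wildtype arrays. In the muscle list every single gene overlapped between the groups, and 4 of the 6 were above the filter. Acta1 had 205 in wildtype array 3, against 37.9 to 62.1 on the other arrays. Lens genes, which come from tissue beside the retina, summed to 152 to 693 in knockout and 56.5 to 1152 in wildtype arrays. No marker was at 0 on any array. The part of these differences in the values below was not tested.

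Of the pro-survival Bcl2 family, all 4 listed members were tested, 0 passed, and 3 had positive log2 fold changes. Bcl2l1, which encodes Bcl-xL, had signals of 993, 622 and 584 in the knockout arrays and 608, 609.5 and 456 in the wildtype arrays. Knockout array 1 was the highest of the 6 and wildtype array 3 the lowest, and the groups overlapped. The means were 733 ± 226 in knockout and 558 ± 87.9 in wildtype (SD, n = 3 each), a log2 fold change of 0.35 ± 0.22 (SE; limma adjusted p = 0.999). Without knockout array 1 the log2 fold change was 0.12. Bcl2, the founding member of the family, had signals of 78.5, 46.9 and 68.4 in knockout and 102, 89.8 and 47.7 in wildtype arrays. The lowest array of each group lay near 47, and the log2 fold change was -0.22 (95% interval -0.83 to 0.40), -0.48 without wildtype array 3 and -0.05 without wildtype array 1. Bcl2l2, which encodes Bcl-w, had signals of 308, 506 and 427 in knockout and 372, 322 and 411 in wildtype arrays. Here knockout array 1 was the lowest of all, the opposite of Bcl2l1, and the log2 fold change was 0.14 (0.33 without that array). Mcl1, a short-lived pro-survival protein, had 1312 ± 161 in knockout and 1227 ± 28.7 in wildtype arrays (SD, n = 3 each), a log2 fold change of 0.09 with an interval of -0.22 to 0.39.

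Of the 2 listed pore-forming effectors, 1 had a named probe set. Bak1, which forms pores in the outer mitochondrial membrane, had signals of 74.6, 66.5 and 61.8 in knockout and 54.9, 64.6 and 56.7 in wildtype arrays. These values lay close to the filter, the 2 groups overlapped at a single pair of arrays, and the log2 fold change was 0.16 (95% interval -0.28 to 0.59). The means were 67.6 in knockout and 58.75 in wildtype arrays. The wildtype mean is under the filter, so Bak1 was tested through its knockout arrays, which favours a positive value.

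The BH3-only proteins sense stress and bind the pro-survival members. Of 8 listed, 5 were tested, 4 with positive log2 fold changes, and 0 passed. Bcl2l11, which encodes Bim, had signals of 405, 238 and 346 in knockout and 293, 359 and 190.0 in wildtype arrays. The arrays of both groups were spread over the same range, and the log2 fold change was 0.23 (95% interval -0.36 to 0.81). It was -0.01 without wildtype array 3. Bad had a log2 fold change of 0.16, Bid of 0.05, Hrk of 0.06 and Bbc3, which encodes Puma and is known as a p53 target, of -0.13, with 95% intervals that each reached across 0. For Hrk the spread lay within wildtype: its signal was 82.8, 75.3 and 85.4 in the knockout arrays and 115, 84.3 and 44.9 in the wildtype arrays. Bik, Bmf and Pmaip1, which encodes Noxa, stayed under the filter and were not tested. Pmaip1 was at 2.77 or less on every array, below the pseudocount, so no fold is given. Bmf had 19.1 to 24.1 in knockout and 22.2 to 44.4 in wildtype arrays, and Bik 42.4 to 67.3 in knockout and 29.6 to 70.1 in wildtype.

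Caspases are the proteases of the pathway. Of 6 listed, 3 were tested, 2 with positive log2 fold changes, and 0 passed. Casp9, the initiator that the Apaf1 complex activates, had signals of 194, 171 and 174 in knockout and 151, 108 and 149 in wildtype arrays on its brighter probe set. Each knockout array was above each wildtype array, and wildtype array 2 lay apart at the low end. The means were 179.5 ± 12.7 in knockout and 136 ± 24.1 in wildtype (SD, n = 3 each), a log2 fold change of 0.37 ± 0.18 (SE; limma adjusted p = 0.999; 95% interval -0.04 to 0.78), and 0.23 without wildtype array 2, the array with the high 18S signal, whose part in this value was not tested. Casp2, an initiator linked to DNA damage, had signals of 489, 476 and 602 in knockout and 592, 537 and 589 in wildtype arrays. Knockout array 3 was the highest of all 6 while the other knockout arrays were the lowest, and the log2 fold change was -0.13 (95% interval -0.48 to 0.22). Casp6, an executioner, had 205 ± 4.66 in knockout and 196 ± 24.0 in wildtype (SD, n = 3 each), a log2 fold change of 0.06.

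The other caspases were under the filter. Casp8, which death receptors activate, had 31.1 to 46.8 in knockout and 33.0 to 56.9 in wildtype arrays, and Casp12, a caspase of the endoplasmic reticulum and of inflammation, had 4.77 to 22.8 in knockout and 11.6 to 32.7 in wildtype. Casp1, which processes interleukin 1 beta in macrophages and microglia, had 0.955, 0.849 and 1.30 in knockout and 3.02, 1.54 and 2.42 in wildtype arrays. All 6 values lay far below the pseudocount, so the ordering of the groups carries no fold. Of 12 microglia and macrophage markers, 12 had a named probe set and 9 were above the filter, with a summed signal of 1789 to 2709 in knockout and 1757 to 2092 in wildtype arrays.

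**Figure D2:**
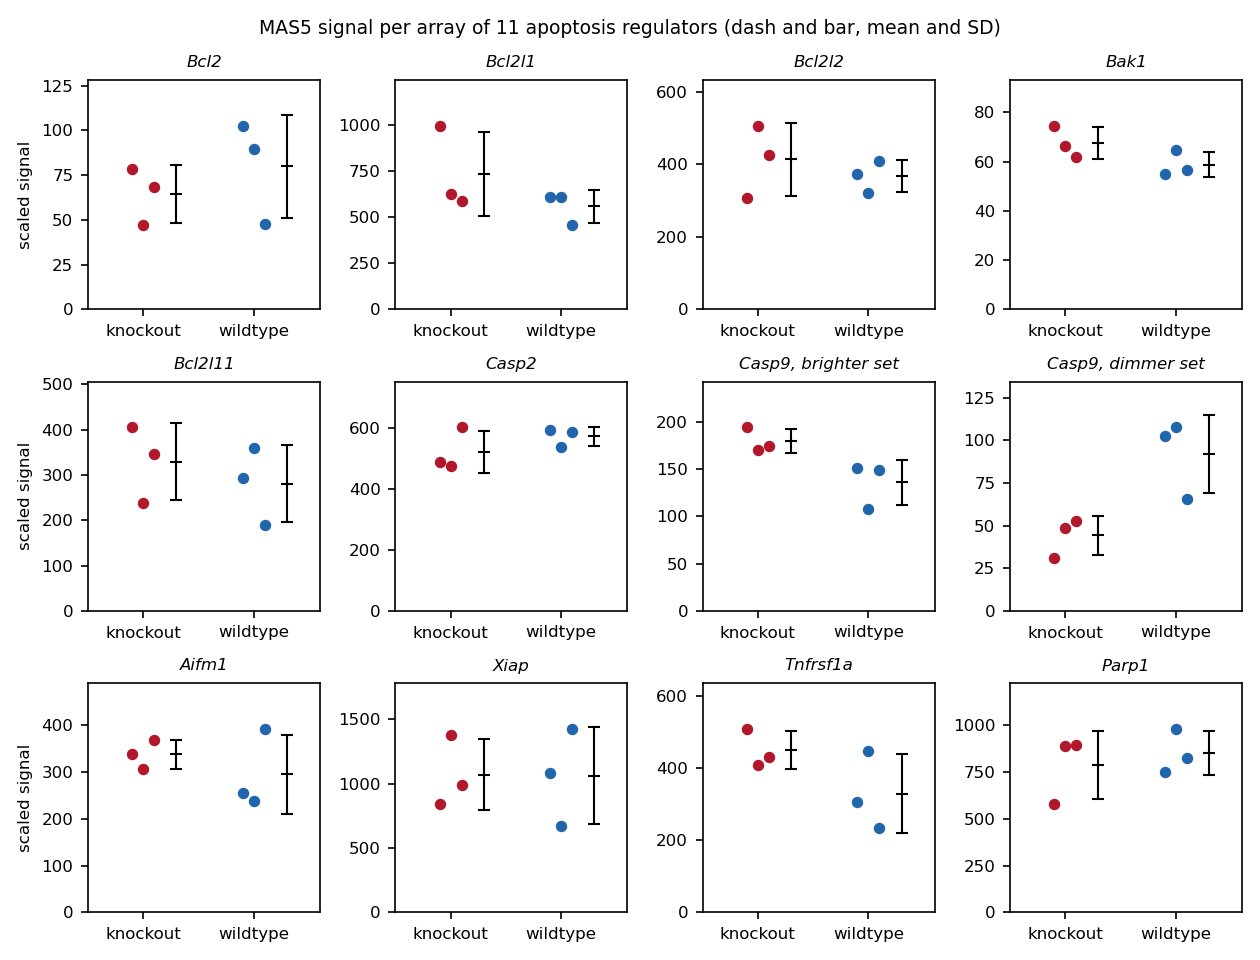
Scaled MAS5 signal (vertical axis, linear from 0, own scale in each panel) of 11 apoptosis regulators on the 3 knockout and the 3 wildtype arrays, with the mean and SD beside the points; both probe sets of Casp9 are shown. The groups are apart without overlap for the brighter Casp9 set (171 to 194 in knockout, 108 to 151 in wildtype) and, in the other direction, for the dimmer one, and overlap in the 10 other panels.

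Casp9 gave opposite values on its 2 probe sets. The dimmer one had signals of 31.2, 48.8 and 53.0 in knockout and 102, 108 and 65.5 in wildtype arrays. Here the highest knockout array was under the lowest wildtype array, where the brighter set had the groups the other way round. The means were 44.3 ± 11.6 in knockout and 91.8 ± 22.97 in wildtype (SD, n = 3 each), a log2 fold change of -0.80 ± 0.25 (SE; limma adjusted p = 0.999), the unadjusted p being 0.00915. The knockout mean of this set is under the filter, so it was tested through its wildtype arrays. Without knockout array 1 its log2 fold change was -0.64 and that of the brighter set 0.32. The log2 difference between the brighter and the dimmer set, in which the scaling of an array largely cancels, was 2.08, 1.48 and 1.42 in knockout and 0.49, 0.0067 and 0.99 in wildtype arrays. Neither set passed the threshold, and the sign of the value given for Casp9 depends on the probe set. The dimmer set has an identifier ending in _a_at, which marks a set that the manufacturer designed to hit several transcripts of a gene. Both values were singled out after they were seen, so the difference between them was not put to a test.

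For other members, too, the sign depended on the probe set. Of 10 members with several tested probe sets, 6 had both signs among them. Mcl1 had 3 positive and 3 negative values over its 6 sets, Parp1 had 3 negative ones over 3, and Bad, Bcl2l11 and Cflar had 2 positive ones over 2. Among the 16 tested probe sets of members that were not the brightest of their gene, 10 had negative values (62.5%), beside 59.5% of the 4381 such sets of all named genes. Of the 22 under the filter, 18 were negative (81.8%), beside 61.5% of 3606. Without knockout array 1 the counts were 8 of 16 and 17 of 22, beside 55.0% and 59.6% over all named genes. Over all named genes, too, more of the sets outside the brightest had negative than positive values. Xiap and Apaf1 show the place of knockout array 1: the second tested Xiap set had 91.9, 392 and 296 in knockout and 271, 295 and 443 in wildtype arrays, a log2 fold change of -0.52 that was 0.05 without that array. The other Apaf1 set had 29.4, 131 and 111 in knockout and 114, 124 and 129 in wildtype arrays, with log2 fold changes of -0.53 and, without that array, -0.02. On both sets the low value was that of knockout array 1, the array with the highest Actb 3' to 5' ratio, and the part of RNA completeness in these values was not tested.

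**Figure D3:**
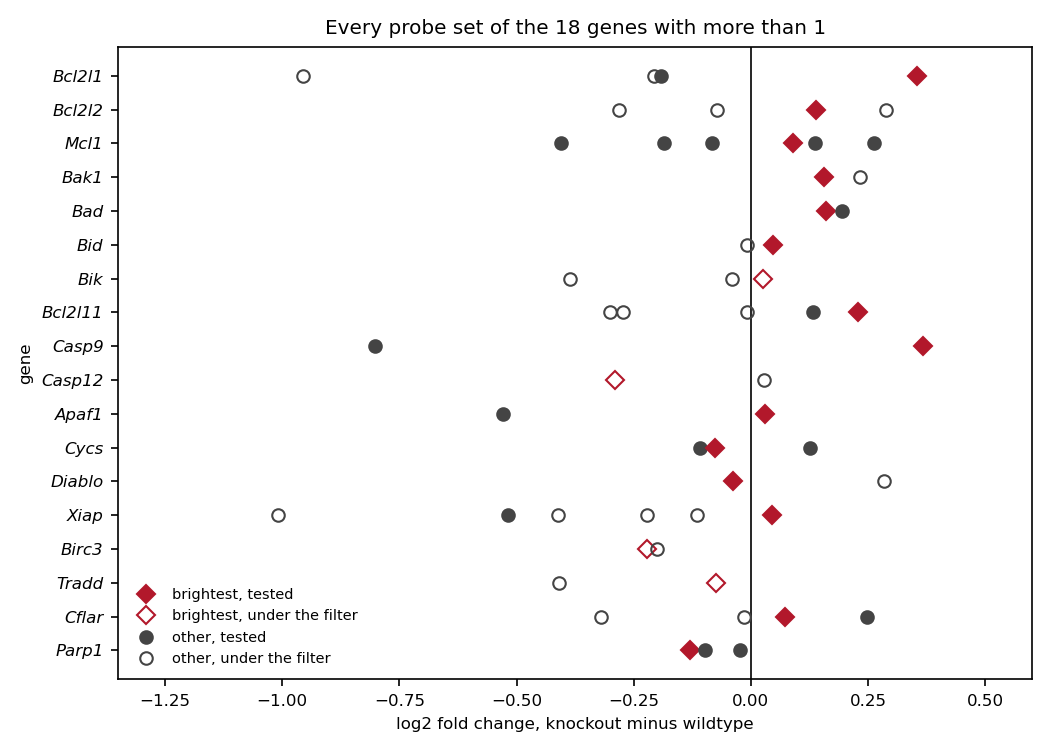
Log2 fold change (knockout minus wildtype, horizontal axis) of every probe set of the 18 members with more than 1, one row a gene; diamonds are the brightest set of a gene, circles the others, and open symbols lie under the filter. The Casp9 sets stand at 0.37 and -0.80, and 10 of the 16 filled and 18 of the 22 open circles lie left of 0.

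The mitochondrial factors and the apoptosome followed. All 4 were tested, 2 had positive log2 fold changes and 0 passed. Aifm1, a mitochondrial flavoprotein that can enter the nucleus during cell death, had signals of 338, 306 and 369 in knockout and 255, 238 and 392 in wildtype arrays. Wildtype array 3 was the highest of all and the other wildtype arrays were the lowest, and the log2 fold change was 0.21 (95% interval -0.25 to 0.68), 0.42 without wildtype array 3 and 0.08 without wildtype array 2. Apaf1, the scaffold of the apoptosome, had 0.03 on its brighter set, Diablo, which blocks inhibitors of apoptosis, -0.04, and Cycs, which encodes cytochrome c, -0.08 (95% interval -0.36 to 0.21). Cycs had 2149 ± 184 in knockout and 2270 ± 229 in wildtype arrays (SD, n = 3 each), and its interval was the narrowest of the members.

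Inhibitors of apoptosis bind caspases or their activating complexes. Xiap, which blocks caspase 9 and the executioners, had signals of 845, 1375 and 989 in knockout and 1083, 674 and 1425 in wildtype arrays. Both groups spanned nearly the same range, and the log2 fold change was 0.05 (95% interval -0.56 to 0.65). Birc2, a ubiquitin ligase of tumour necrosis factor signalling, had -0.06 with 326 to 368 in knockout and 304 to 412 in wildtype arrays. Birc3 was under the filter, at 14.0 to 35.0 in knockout and 21.6 to 44.6 in wildtype arrays. The log2 ratio of Casp9 to Xiap within an array, on the brightest sets, was -2.02, -2.88 and -2.39 in knockout and -2.70, -2.44 and -3.11 in wildtype arrays. Its mean was -2.43 ± 0.43 in knockout and -2.75 ± 0.33 in wildtype (SD, n = 3 each), a difference of 0.32 (exact two-sided permutation p = 0.4, where 0.1 is the smallest that 3 against 3 arrays allow). With 1 array left out it ranged from 0.12 (without knockout array 1) to 0.55 (without knockout array 2), and it was 0.02 with the mean of all tested sets of each gene.

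Of the death receptor pathway, 3 of 5 were tested, 2 had positive values and 0 passed. Tnfrsf1a, the main receptor of tumour necrosis factor, had signals of 509, 409 and 431 in knockout and 305, 449 and 234 in wildtype arrays. Wildtype array 2 lay between the knockout arrays and the other wildtype arrays lay below all of them. The means were 449.8 ± 52.4 in knockout and 329 ± 109 in wildtype (SD, n = 3 each), a log2 fold change of 0.47 ± 0.23 (SE; limma adjusted p = 0.999; 95% interval -0.04 to 0.98). It was 0.26 without wildtype array 3 and 0.71 without wildtype array 2, with adjusted p values of 0.687 or more over the arrays left out. Fadd, the adaptor that recruits caspase 8, had -0.01 and Cflar, which blocks that recruitment, 0.07. Fas, a death receptor, was at 2.52 or less on every array, and Tradd, the adaptor of Tnfrsf1a, had 23.3 to 41.8 in knockout and 19.8 to 52.0 in wildtype arrays, under the filter.

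Of the 2 listed nuclear regulators, 1 was measured. Parp1, which marks DNA breaks and is cut by caspases, had signals of 578, 888 and 890.4 in knockout and 748, 979 and 822 in wildtype arrays. Knockout array 1 was the lowest of all, and the log2 fold change was -0.13 with that array and 0.07 without it.

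**Figure D4:**
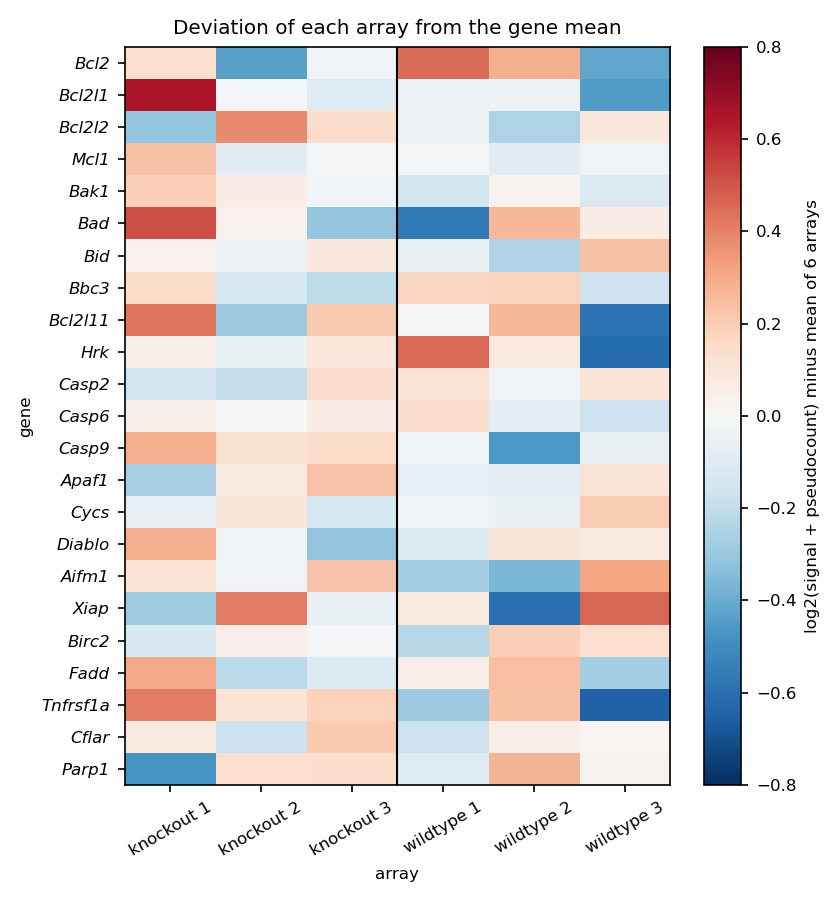
Deviation of log2(signal + 19.1) from the mean of the 6 arrays (colour) for the 23 tested apoptosis regulators (rows) on each array (columns, knockout left of the line and wildtype right of it). Knockout array 1 is the highest of the 6 for 9 members, among them Bcl2l1, Bad and Tnfrsf1a, and wildtype array 3 is the lowest for 6.

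The spread within groups was not even over the arrays. Knockout array 1 was the highest of the 6 for 9 of 23 members (39.1%) and the lowest for 3 (13.0%), beside 25.3% and 28.2% of all tested probe sets. Wildtype array 3 was the lowest for 6 (26.1%), beside 19.6%. The mean absolute deviation of the members from their mean was 0.241 in knockout array 1, 0.232 in wildtype array 3 and 0.137 to 0.194 in the other 4 on the log2 scale. Over all tested probe sets it was 0.301 in knockout array 1, 0.201 in wildtype array 3 and 0.161 to 0.191 in the other 4. The SD within the knockout group was the larger one for 10 members and that within wildtype for 13, with medians of 0.187 and 0.223.

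Outside the 34 members, 103 other genes of cell death were listed, of which 86 had a named probe set and 60 were tested. None passed the threshold, 33 had positive and 27 negative log2 fold changes, and the groups did not overlap for 6 of the 60, beside 9.1% of all tested probe sets. The 6 genes with the largest moderated statistics are given as values (limma adjusted p = 0.999 for each). Bag1, a co-chaperone that binds Bcl2, had 706, 508 and 546 in knockout and 462, 423 and 447 in wildtype arrays, a log2 fold change of 0.37 ± 0.17 (SE). Septin4, whose ARTS form in human cells binds Xiap, had 0.31 and Bok, of the Bcl2 family, 0.32. Traf6, a ubiquitin ligase of receptor signalling, had -0.53, Bnip2, a Bcl2 partner, -0.41 and Nol3, a repressor with a caspase recruitment domain, -0.37. Knockout array 1 was the highest for Bag1 and Bok and the lowest for Traf6 and Bnip2. Without it Bok had 0.20, Bag1 0.24, Traf6 -0.24 and Bnip2 -0.17, while Septin4 had 0.34 and Nol3 -0.35.

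The DNA before the gene start, which the choice of members did not use, was described by its CG dinucleotides. CG dinucleotides are rare in mouse DNA outside CpG islands, which mark the start of many widely expressed genes. The 250 bases before the most upstream start were read from RefSeq (GRCm38.p6) for 29 of the 32 members. The 3 without an entry, Bik, Pmaip1 and Tradd, all lay under the filter and were not used here. CG reads the same on both strands, and 91.7% of the 27025 genes in that table have at least 1 in this window. Of the 9 members under the filter, the 6 with an entry had 1 to 11 (median 5.5), and the 23 tested members had 1 to 42 (median 19). Over all named genes the medians were 6 under the filter, for 3230 genes, and 16 above it, for 6657, so the order was that of the array as a whole. Signals of different probe sets do not rank RNA levels, and the filter divides the genes only by brightness on this array. The windows of Casp9 and Casp12, the caspase with the most and a caspase with the fewest, are printed 5′ to 3′ on the plus strand to show the contrast, with CG in capitals. The Casp9 window, with 25, lies at chr4:141793362-141793611, and the Casp12 window, with 1, at chr9:5345226-5345475.
Casp9: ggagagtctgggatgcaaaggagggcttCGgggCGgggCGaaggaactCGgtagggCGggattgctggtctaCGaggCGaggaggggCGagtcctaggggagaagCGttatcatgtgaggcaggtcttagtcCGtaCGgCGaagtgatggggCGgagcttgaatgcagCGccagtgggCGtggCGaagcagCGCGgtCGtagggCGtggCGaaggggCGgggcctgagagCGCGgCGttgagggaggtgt
Casp12: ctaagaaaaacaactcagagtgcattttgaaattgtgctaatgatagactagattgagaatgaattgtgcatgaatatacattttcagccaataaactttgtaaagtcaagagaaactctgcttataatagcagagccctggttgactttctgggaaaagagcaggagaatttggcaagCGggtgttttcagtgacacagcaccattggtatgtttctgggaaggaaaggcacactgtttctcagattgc
Tested members with fewer than 10 CG were Xiap (1), Cflar (7), Bak1 (8), Bcl2l2 (9) and Tnfrsf1a (9), and the highest counts were those of Apaf1 (42), Bcl2 (36) and Birc2 (31). In 3 cases members are neighbours with at most 1 protein-coding gene between them: Cflar and Casp8 on chromosome 1, and Casp1 with Casp12 and Birc2 with Birc3 on chromosome 9. In the first and the last of these pairs 1 gene was tested and the other lay under the filter, and both genes of the Casp1 pair lay under it.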

How the data were processed

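Per the submitters' processing notes, the deposited values are MAS5 signals, linear intensity values with 1 per probe set and array. Version, scaling target and detection calls are not given in the sources used here. Groups came from the labels, which do not say that the arrays of a group are separate animals, so the p-values describe only array-to-array spread and may be technical. The 64 control probe sets were left out, arrays were scaled to a common mean after trimming 2% at each end, and 19.1, the 20th percentile of the scaled signals, was added before log2. Probe sets with a mean above the 40th percentile (13575) were tested as knockout minus wildtype in limma 3.58.1 (R 4.3.3) with an intensity trend and Benjamini-Hochberg adjustment over all of them. The fit was tested on simulated data.

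Symbols were updated through Entrez identifiers, of which 20351 of 20380 single-symbol probe sets matched. Another 691 had several symbols and were not named, and 1555 had none. Members and lists were chosen with earlier results of these data known. Values on every array are given for tested members without overlap, the 10 with the largest absolute moderated statistic and those of the ratio. Outside that rule they are also given for Hrk, the untested Casp1, and other probe sets of Casp9, Xiap and Apaf1. Alternatives covered scaling, pseudocount, filter, variance model, replicate block, arrays left out and the probe set used. The targeted gene is not reported here, and 2 planned ratios were not run because 1 gene of each has no named probe set here. Nothing in the labels says that a replicate number is shared between groups. The correlations between deviations of arrays with the same number were 0.18 (number 1), -0.029 (number 2) and 0.084 (number 3). So few values cannot decide whether the numbers pair the arrays, and the main fit treated the arrays as unpaired.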

Additional observations from a re-analysis of the deposited data

How the results depend on the processing

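No member passed the threshold in any of the 19 alternative settings (lowest limma adjusted p = 0.687), and 384 of 431 member values kept their sign. Settings that changed only the filter, the intensity trend or the replicate block leave each fold change as it was. The 2 settings that changed the probe set used leave it as it was for members whose set stayed the same. Signs in those cases were fixed in advance, so the count overstates how stable the signs were. Over all probe sets, 2 passed the threshold, against 10 when arrays were not rescaled, 1 with no filter, 4 without wildtype 2 and knockout 1 together, and 0 to 4 with 1 array left out (0 without wildtype 3, 1 without knockout 2 or 3, 4 without wildtype 2). Members without overlap (1) numbered 2 with quantile normalization (beside 9.27% of all tested probe sets), 3 with median scaling (9.92%), 4 without rescaling (8.64%), 2 without a filter (8.84%), 0 with the filter at the 60th percentile (9.03%), 5 without wildtype 2 and knockout 1 together (25.9%), and 2 to 5 with 1 array left out (13.9% to 23.1%). The median of the members (0.06) was 0.139 with median scaling, 0.353 without rescaling and -0.0139 with the mean of all probe sets of a gene, while the median of all tested probe sets was 0.0878 with median scaling and 0.290 without rescaling. A fit that took the replicate number as a block called 2 probe sets and 0 members (lowest adjusted p = 0.89), and knockout arrays 1 and 3 but not 2 correlated best with the wildtype array of the same number. With the mean of all probe sets of a gene, members without overlap still numbered 1 (beside 9.1%), but that member was lower in knockout. In the main fit the 1 member was higher. The cause of these shifts was not tested.

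Signs turned for 19 members. Without rescaling, all 23 members were positive and Bcl2 (0.0439), Bbc3 (0.15), Casp2 (0.17), Parp1 (0.18), Birc2 (0.24), Cycs (0.24), Diablo (0.27) and Fadd (0.27) had turned. With median scaling Cycs (0.0165), Birc2 (0.0245), Diablo (0.0522) and Fadd (0.0721) did, with quantile normalization Fadd (0.0172), and with array weights Hrk (-0.0886). With the mean of all probe sets, Mcl1 had -0.0307, Casp9 -0.22, Xiap -0.24 and Apaf1 -0.25, and with the brightest set ending in plain _at, Mcl1 had -0.19 and Cycs 0.13. With 1 array left out, Mcl1 ranged from -0.00701 to 0.16, Bad from -0.0817 to 0.36, Parp1 from -0.23 to 0.0722, Bcl2l2 from -0.0142 to 0.33, Xiap from -0.24 to 0.29, Fadd from -0.17 to 0.10, Cflar from -0.0153 to 0.18, Apaf1 from -0.0758 to 0.17, Diablo from -0.19 to 0.11, Bid from -0.0657 to 0.18, Birc2 from -0.19 to 0.0156, Casp6 from -0.00255 to 0.15, Bcl2l11 from -0.01 to 0.43, Hrk from -0.23 to 0.30 and Cycs from -0.14 to 0.00384. Without wildtype 2 and knockout 1 together, Mcl1 (-0.0258), Bid (-0.0707), Xiap (-0.0901), Birc2 (0.0618) and Parp1 (0.18) turned. The count of negative probe sets outside the brightest was also run without knockout array 1, an alternative chosen after seeing the data.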
